A study of Mus musculus with 23 samples.

Results

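The comparison described here, by sequencing of poly(A) RNA, sets mouse oligodendrocyte-lineage cells carrying CRISPR guides against Sox6 beside cells carrying a non-targeting guide, after both had been moved out of growth medium. It uses 9 of the 23 libraries of the series, chosen by their labels: 3 with SOX6 guide 1, 3 with SOX6 guide 2 and 3 controls. The series, whose title concerns the timing of oligodendrocyte maturation, also holds 8 libraries of the same kind of cells left in growth medium and 6 libraries of sorted cells, and those are used below only where the comparison needs them.

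All 9 libraries share the same history. Oligodendrocyte progenitor cells (OPCs) had been derived from mouse epiblast stem cells, pluripotent cells of the early embryo (lines EpiSC5 and 129O1, of strains 129SvEv and 129S1/SvImJ; the line behind each library was not settled), and sorted for the progenitor surface proteins CD140a and NG2. They were then infected with a lentivirus that carries both the Cas9 nuclease and a guide (the CRISPRv2 vector), so controls also carry Cas9 and the virus. Puromycin (500 ng/mL, 96 hours) removed uninfected cells, and the survivors recovered and were frozen. For RNA they were plated in 6-well plates and kept for 60 hours in a medium with noggin, IGF-1, cyclic AMP and NT3 that permits differentiation but has no added thyroid hormone (T3). The labels call these cells oligodendrocytes (OLs); the cultures were not sorted before lysis, and the labels mention no cloning. Control and targeted OPCs came from 1 starting batch, per the labels. Nothing in the labels says whether the 3 libraries of a group were separate cultures; the spread behind the p-values is that between these libraries and may be technical.

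SOX6 is a SoxD transcription factor that binds DNA through a high-mobility-group domain but has no activation or repression domain of its own, and acts through its partners and through other SOX proteins. In the oligodendrocyte lineage SOX5 and SOX6 are known to hold back specification and terminal differentiation, partly by opposing SOX9 and SOX10, which drive myelin genes. Oligodendrocytes pass through a short premyelinating stage, marked by genes such as Bcas1, Gpr17 and Neu4, between the dividing progenitor and the cell that makes myelin.

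The guides are shown because where they cut fixes what a change in Sox6 RNA can show. Each is written 5′ to 3′, with the protospacer in lower case and the genomic bases that Cas9 requires next to it (the PAM) in capitals; the non-targeting guide is shown alone.
SOX6 guide 1: ttgacggaatgaactgtacgGGG
SOX6 guide 2: agaacacgctttgagaacctGGG
non-targeting guide: aagcctacttcaccggtcgg
Sox6 spans bases 115470872 to 116038796 of chromosome 7, minus strand (GRCm38), and its transcript ENSMUST00000072804.10 has 17 exons. Guide 1 matched bases 115580612 to 115580631, in coding exon 9 and on the opposite strand. Its cut falls at codon 305 of 827, after 36.8% of the coding sequence. Guide 2 matched bases 115512747 to 115512766, in coding exon 14 and on the transcript's own strand. Its cut falls at codon 547, after 66.1% of the coding sequence. An exact search of annotated transcripts for the non-targeting guide gave 0 matches; the rest of the genome was not searched. Reads over the whole transcript can still be counted after a cut, and the edits themselves were not analysed here.

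Total estimated counts ran from 13124580 to 18551822 per library. Guide 1 library B stood apart from the other 8 libraries. On the first principal component of log2 levels, which held 35.23% of the variance, it lay at 82.69 and the others between -16.74 and -5.503. Its share of reads in cytosolic ribosomal protein genes was 4.07%, against 2.22% to 2.93% elsewhere, and its share in mitochondrial genes was 6.79%, against 5.63% to 6.21%. Across genes, its log2 ratio to the other libraries of its group followed transcript length with a Spearman rho of -0.419. Guide 1 libraries A and C, at 0.326 and 0.382, were compared with a group that includes library B. Libraries of the other groups lay between -0.115 and 0.153. Whether RNA quality or library preparation sets it apart was not tested, and counts of changed genes are given below with and without it. The second component, with 18.92% of the variance, held the 3 controls at 25.67 to 26.9, guide 1 library B at 8.49 and the other targeted libraries at -38.92 to -10.47.

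**Figure D1:**
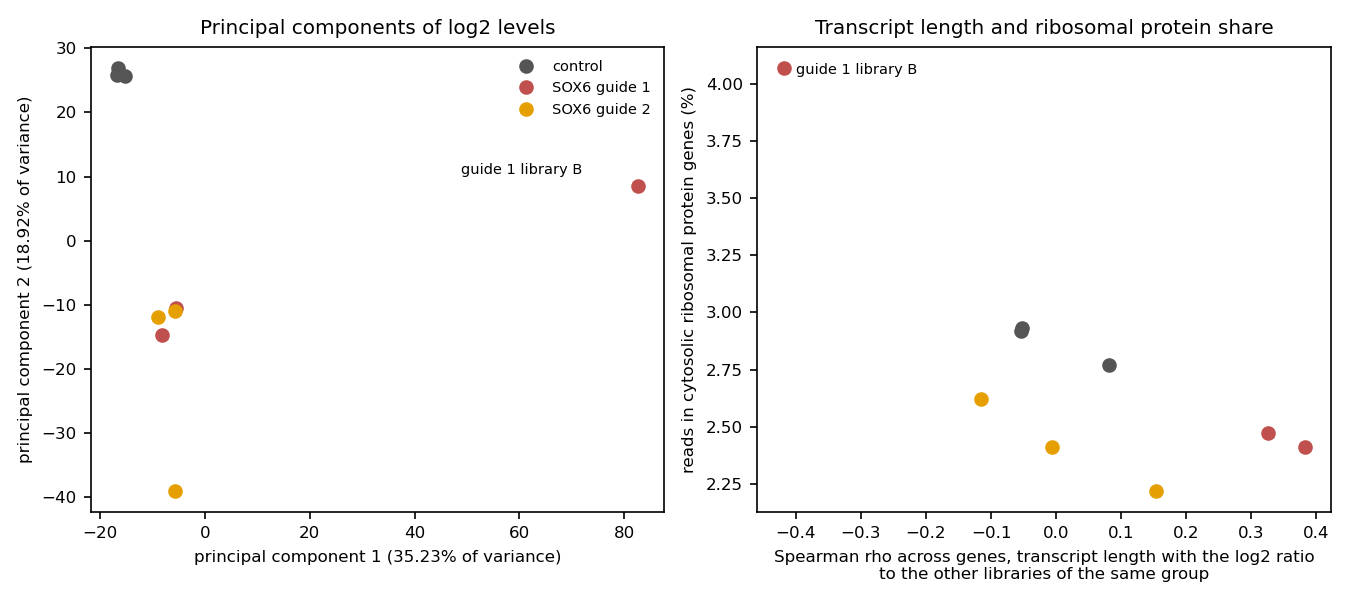
Left, the 9 libraries on principal components 1 and 2 of their log2 levels (arbitrary units). Right, each library's Spearman rho across genes between transcript length and its log2 ratio to the other libraries of its group (x) against the percent of its reads in cytosolic ribosomal protein genes (y). Points are single libraries coloured by group; guide 1 library B lies alone at 82.69 on component 1 and at 4.07% ribosomal protein reads, and the controls lie together at the top left of the left panel.

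The OL label was checked against markers. The lineage factors Olig1, Olig2 and Sox10 averaged 3196, 1244 and 265 CPM (read counts scaled to a common library total by TMM) in controls. The myelin genes Cnp, Mbp and Mag averaged 887, 702 and 121 CPM, and the premyelinating gene Gpr17 averaged 1635 CPM. Among genes of mature oligodendrocytes, Opalin averaged 4.23 CPM and Mog had too few reads to be tested. Mal was listed at 0 in all 9 libraries, as were broadly expressed genes such as Igf2r and Col4a2, so its listing is no measure of the stage. The progenitor gene Pdgfra was still at 108 CPM, and the progenitor list described below summed to 14520 to 14660 CPM in controls. The newly formed oligodendrocyte list summed to 6604 to 6688 CPM and the myelin list to 2776 to 2991 CPM. These lists hold different genes, so their sums do not rank the stages. Control cells at this time therefore held progenitor, premyelinating and early myelin transcripts, with Opalin and Mog low.

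Sox6 RNA itself was lower in every targeted library. It read 415, 436 and 385 CPM in control libraries A, B and C, 259, 155 and 241 CPM with guide 1 and 252, 252 and 252 CPM with guide 2. The groups did not overlap, and guide 1 library B held the lowest level. The log2 change over both guides, by edgeR, was -0.81 (SE 0.14, adjusted p = 0.0095), and -0.72 without guide 1 library B. The call was lost when control library A or B was left out or with a transcript length offset (log2 -0.88 to -0.72 over the alternatives, adjusted p up to 0.105). Much Sox6 RNA thus remained with each guide (means of 219 and 252 CPM against 412 CPM), and RNA does not measure the protein.

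Over both guides, 874 of 13447 genes tested changed (6.5%; quasi-likelihood test of edgeR, Benjamini-Hochberg adjusted p at most 0.05). Of these, 421 were higher in targeted cells (3.13% of genes tested) and 453 were lower (3.37%). Large changes were fewer: 96 genes rose and 165 fell by at least 2-fold, and 31 rose and 21 fell by at least 4-fold. The median change over all genes tested was -0.000781 on the log2 scale. In 1169 genes (8.69%) all 6 targeted libraries lay above all 3 controls, and in 1204 genes (8.95%) all lay below. Leaving out guide 1 library B raised the count to 2337 of 13810 genes (16.9%), with 1149 higher (8.32%) and 1188 lower (8.6%). That set contained 873 of the 874 genes, and every 1 of the 874 kept its direction. Leaving out a control lowered the count, to 371 without library A, 353 without B and 407 without C, and leaving out guide 2 library A or C gave 513 or 546. The count therefore depends on the libraries used.

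**Figure D2:**
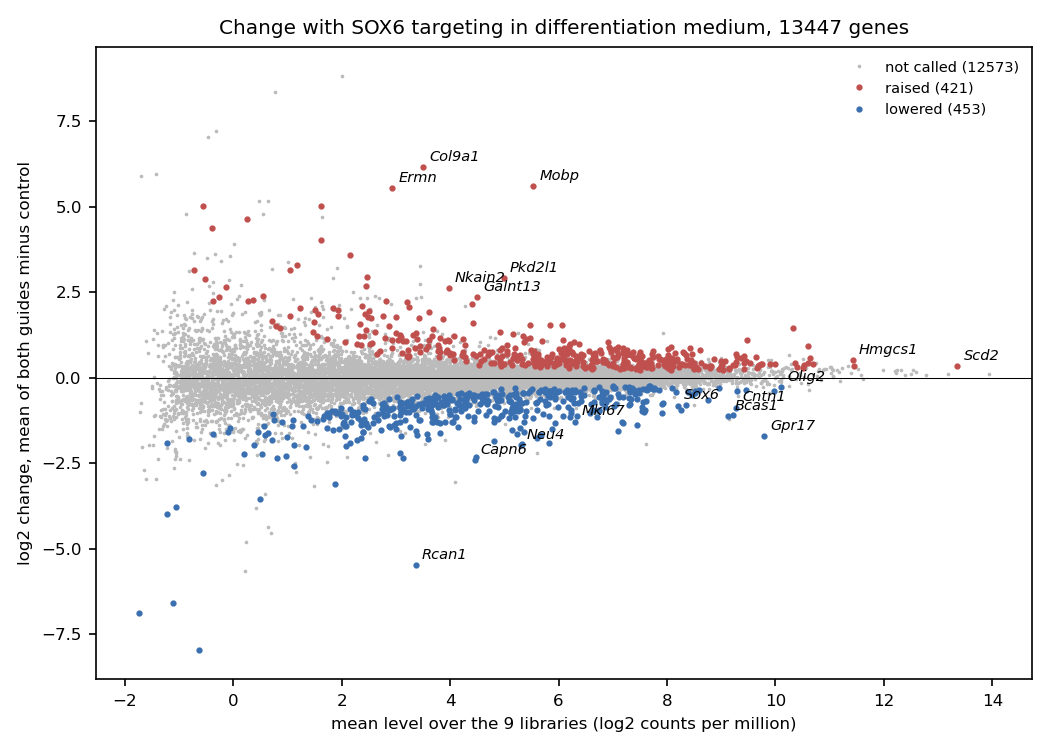
Each point is 1 gene: its mean level over the 9 libraries (x, log2 CPM) against its log2 change, mean of both guides minus control (y). Coloured points are the 421 genes called higher and 453 called lower; Mobp (5.60), Ermn (5.54) and Col9a1 (6.15) lie far above the rest at low to moderate levels, and the newly formed oligodendrocyte gene Neu4 lies at -1.96.

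Mobp, which encodes myelin-associated oligodendrocyte basic protein, a structural protein of compact myelin, had the smallest adjusted p of the genes named here. It read 0.983, 1.51 and 1.79 CPM in control libraries A, B and C, 69.04, 63.3 and 63.05 CPM with guide 1 and 76.4, 64.9 and 75.9 CPM with guide 2. Every targeted library was far above every control, and guide 1 library B read like its group. The change was 48.4-fold (95% interval 36.3 to 64.5, log2 change 5.598, SE 0.183, adjusted p = 3.71e-06). Over the alternatives the log2 change of Mobp ran from 5.01 to 5.79. The authors' deposited log2 ratio of control to targeted cells was -4.9. The interval does not cover this dependence on the method. Ermn, which encodes ermin, a cytoskeletal protein of myelinating oligodendrocytes, followed the same pattern at a lower level. It read 0.231, 0.0629 and 0.43 CPM in control libraries A, B and C, 11.97, 11.6 and 13.7 CPM with guide 1 and 9.49, 9.89 and 11.5 CPM with guide 2, so controls held only a few reads and the groups did not overlap (log2 change 5.54, SE 0.402, adjusted p = 0.000129). Single-guide changes of Mobp were 5.52 with guide 1 and 5.67 with guide 2, and those of Ermn were 5.67 with guide 1 and 5.41 with guide 2.

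The 2 genes of the newly formed stage moved the other way. Bcas1, which marks early myelinating oligodendrocytes, read 874, 859 and 886 CPM in control libraries A, B and C, 385, 387 and 341 CPM with guide 1 and 432, 454 and 419 CPM with guide 2. Both guides left it well below every control (log2 change -1.12, SE 0.0629, adjusted p = 2.65e-05). Neu4, a sialidase of newly formed oligodendrocytes, read 77.3, 82.4 and 74.1 CPM in control libraries A, B and C, 19.3, 16.96 and 16.1 CPM with guide 1 and 22.8, 22.6 and 23.2 CPM with guide 2. Again the groups were widely separated (log2 change -1.96, SE 0.0795, adjusted p = 7.62e-06), with -1.23 with guide 1 and -1.01 with guide 2 for Bcas1 and -2.16 with guide 1 and -1.77 with guide 2 for Neu4. Mobp, Ermn, Bcas1 and Neu4 all kept their call under all 19 alternatives. Mobp lies on the plus strand of chromosome 9 (120149707 to 120181484), Ermn on the minus strand of chromosome 2 (58045113 to 58052864), Bcas1 on the minus strand of chromosome 2 (170346991 to 170427845) and Neu4 on the plus strand of chromosome 1 (94020451 to 94028334), all GRCm38.

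**Figure D3:**
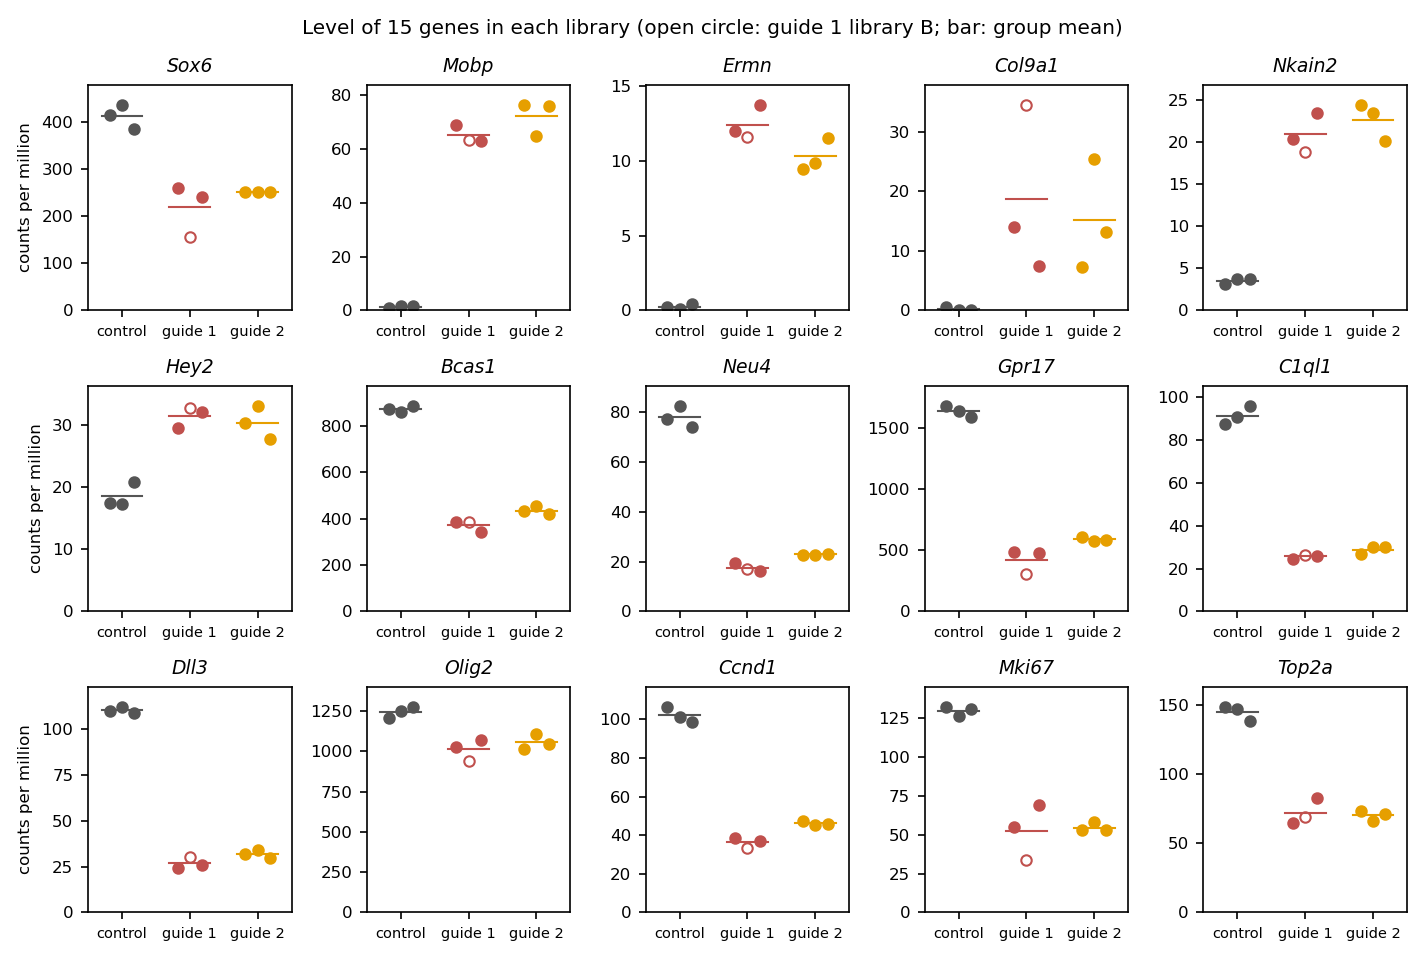
Level of 15 genes (y, CPM from 0, a scale for each gene) in the 3 control, 3 guide 1 and 3 guide 2 libraries. Points are libraries, the open circle is guide 1 library B and bars are group means; in these 15 genes the targeted and control libraries do not overlap, with Mobp, Ermn, Col9a1, Nkain2 and Hey2 above the controls and the other 10 below.

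The sequence just before the start of Mobp is shown because SOX proteins bind short sites and because Mobp moved most clearly; those of Ermn and Neu4 are shown beside it. Each is the 250 bases before the RefSeq start (GRCm38.p6), 5′ to 3′ on the gene's strand, with matches to AACAAAG or AACAATG on either strand (CTTTGTT or CATTGTT on the other) in capitals. The coordinates are chr9:120149492-120149741 on the plus strand for Mobp, chr2:58052865-58053114 on the minus strand for Ermn and chr1:94020243-94020492 on the plus strand for Neu4.
Mobp: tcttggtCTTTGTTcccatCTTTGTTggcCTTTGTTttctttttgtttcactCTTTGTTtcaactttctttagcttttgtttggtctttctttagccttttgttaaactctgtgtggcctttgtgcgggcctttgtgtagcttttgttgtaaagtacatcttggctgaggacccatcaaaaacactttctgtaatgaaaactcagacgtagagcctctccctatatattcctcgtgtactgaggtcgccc
Ermn: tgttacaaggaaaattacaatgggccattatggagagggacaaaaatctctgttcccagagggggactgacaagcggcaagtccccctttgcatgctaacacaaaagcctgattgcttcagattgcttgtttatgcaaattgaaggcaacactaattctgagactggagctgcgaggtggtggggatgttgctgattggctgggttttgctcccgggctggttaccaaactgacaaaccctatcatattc
Neu4: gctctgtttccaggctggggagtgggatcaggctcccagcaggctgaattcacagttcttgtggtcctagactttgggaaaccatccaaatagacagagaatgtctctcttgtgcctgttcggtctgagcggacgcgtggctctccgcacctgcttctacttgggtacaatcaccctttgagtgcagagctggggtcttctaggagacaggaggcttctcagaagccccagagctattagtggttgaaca
Mobp held 4 matches, all CTTTGTT, which begin 243, 231, 221 and 198 bases before the start. Of 27025 genes with such a window, 2499 held at least 1 match (9.25%), 145 held at least 2 (0.537%), 8 held at least 3, and Mobp was the only 1 with 4. The motif letters were chosen with the sequence of Mobp in view, so these counts cannot set Mobp apart. Its matches are copies of 1 string in a T-rich stretch of similar units and are not independent. The windows of Ermn and Neu4 held 0. Among the genes called, 25 of 335 raised genes with a window held a match (7.46%) and 25 of 355 lowered genes (7.04%), against 639 of 10195 of all genes tested (6.27%). A match is a string of letters and no measure of binding.

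Genes of myelin and the mature oligodendrocyte did not move as 1 block. Of 30 measured members, 11 rose, 5 fell and 14 had no call, with a median of 0.44, against 3.13% higher, 3.37% lower and a median of -0.000781 over all genes tested. The same values over all genes stand beside each list below. Lists and members were chosen with earlier results of these data known, so these comparisons are description only. The summed level of the myelin list ran from 2776 to 2991 CPM in controls, 3214 to 3311 with guide 1 and 3580 to 3679 with guide 2. Beside Mobp and Ermn, Gpr37, a receptor of maturing oligodendrocytes, rose from 25.2 ± 0.682 to 71.6 ± 6.02 and 74.2 ± 4.54 CPM (here and below, control mean and then guide 1 and guide 2 means, ± SD, n = 3 each; log2 change 1.53, SE 0.0851, adjusted p = 2.65e-05). Cldn11, the claudin of myelin tight junctions, rose from 10.5 ± 0.439 to 22.2 ± 5.01 and 24.02 ± 4.43 CPM (1.13, adjusted p = 0.00553). Adamts4, a protease of mature oligodendrocytes, rose from 50.4 ± 4.76 to 97.1 ± 10.2 and 101 ± 8.63 CPM (0.98, adjusted p = 0.000836). Mbp, the abundant myelin basic protein gene, rose less. It read 647, 723 and 735 CPM in control libraries A, B and C, 879, 902 and 820.4 CPM with guide 1 and 966, 1018 and 984 CPM with guide 2. All targeted libraries lay above the controls, by 0.400 on the log2 scale (adjusted p = 0.00844). For Mbp, the call was lost when control library A was left out (log2 0.33 to 0.44 over the alternatives, adjusted p up to 0.0529).

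Members that fell included Gjc3, which encodes connexin 29 (from 238 ± 5.52 to 88.4 ± 7.02 and 105 ± 2.83 CPM; log2 change -1.303, SE 0.0658, adjusted p = 1.88e-05), and Fa2h, the fatty acid 2-hydroxylase that makes the hydroxylated lipids of myelin (from 50.8 ± 2.46 to 25.04 ± 1.68 and 30.7 ± 1.73 CPM; -0.87, adjusted p = 0.000392). Mag, the periaxonal adhesion protein of myelin, had no call (-0.31, adjusted p = 0.117), nor had Cnp (0.21, adjusted p = 0.0761) or Opalin (0.19, adjusted p = 0.746). The number of risen members ran from 8 to 13, and of fallen members from 2 to 7, with any 1 library left out. In bulk cultures such as these, fewer cells of a type and less RNA per cell cannot be told apart.

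The newly formed oligodendrocyte list fell more than it rose. Of 28 members, 8 fell (Neu4, Lims2, Gpr17, Parvb, Bcas1, Chn2, Tubb4a and Sirt2), 2 rose (Frmd4a and Mpzl1) and 18 had no call, with a median of -0.41. The summed level of all 29 list members in the deposited counts was 6604 to 6688 CPM in controls and 3322 to 4289 CPM in targeted libraries. Gpr17, a G protein-coupled receptor of the premyelinating stage that restrains maturation, was the most abundant of them. It read 1678, 1638 and 1588 CPM in control libraries A, B and C, 485, 303 and 475 CPM with guide 1 and 612, 574 and 585 CPM with guide 2. All targeted libraries lay far below the controls, and the change was -1.71 (SE 0.132, adjusted p = 0.000173). Lims2, whose product PINCH2 acts at focal adhesions, changed by -1.86, adjusted p = 2.27e-05, but the genomic spans of Lims2 and Gpr17 overlap on opposite strands and the library kit did not mark strand. Whether their exons share reads was not tested, so the change of Lims2 is uncertain. Parvb, the focal adhesion gene of beta-parvin, fell from 126 ± 3.42 to 52.8 ± 7.58 and 63.4 ± 2.46 CPM (-1.12, adjusted p = 0.000223). Tubb4a, the tubulin isotype of oligodendrocytes, fell from 175 ± 7.53 to 112 ± 6.62 and 126 ± 6.52 CPM (-0.56, adjusted p = 0.00172). Enpp6 and Itpr2, further markers of the stage, had no call (-1.85, adjusted p = 0.334; -0.42, adjusted p = 0.699) and varied widely between libraries. Between 8 and 10 members fell with any 1 library left out.

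Of 28 progenitor genes, 12 fell and 2 rose (C1ql2 and Ednrb), with a median of -0.31. The summed level of all 30 list members did not fall throughout. It was 14520 to 14660 CPM in controls, 12620 to 14960 CPM with guide 1 and 14750 to 15200 CPM with guide 2. C1ql1, a secreted C1q-like protein of OPCs, read 87.4, 90.7 and 95.7 CPM in control libraries A, B and C, 24.6, 26.3 and 26.03 CPM with guide 1 and 26.6, 29.8 and 29.997 CPM with guide 2, and no targeted library came near a control (log2 change -1.75, SE 0.072, adjusted p = 7.62e-06). Ccnd1, the G1 cyclin D1, fell from 102 ± 3.93 to 36.3 ± 2.67 and 46.1 ± 1.27 CPM (-1.32, adjusted p = 2.27e-05). Matn4, a matrilin, fell from 21.2 ± 1.65 to 8.002 ± 2.13 and 9.47 ± 1.14 CPM (-1.28, adjusted p = 0.00261), and Lhfpl3 fell from 261 ± 20.3 to 156 ± 3.1 and 169.7 ± 1.89 CPM (-0.68, adjusted p = 0.000475). Pdgfra, the receptor for the progenitor mitogen PDGF, had no call and overlapped between groups (0.16, adjusted p = 0.779). With any 1 library left out, 6 to 15 members fell and 0 to 6 rose.

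Among transcription factors that drive differentiation, 6 of 23 fell and 0 rose, with a median of -0.27. Sox10, the SoxE factor that activates myelin genes, read 265, 256 and 273 CPM in control libraries A, B and C, 140.2, 123 and 132 CPM with guide 1 and 159, 165 and 156 CPM with guide 2. Its targeted libraries lay far below the controls (log2 change -0.86, SE 0.0634, adjusted p = 0.000138). Zfp365 fell from 146 ± 5.43 to 70.8 ± 5.07 and 81.6 ± 13.3 CPM (-0.94, adjusted p = 0.000979). Olig2, the lineage factor, read 1208, 1251 and 1275 CPM in control libraries A, B and C, 1025, 939 and 1072 CPM with guide 1 and 1015, 1109 and 1047 CPM with guide 2. It was lower in all 6 by a small amount (-0.27, adjusted p = 0.0419). For Olig2, the call was lost when control library A, B or C was left out, when guide 1 library A was left out, when guide 2 library A, B or C was left out, with no filter on low counts, with a transcript length offset or with the column letter as a block (log2 -0.33 to -0.24 over the alternatives, adjusted p up to 0.221). Myrf, the activator of the late myelin program, was below the controls in all targeted libraries but had no call: it read 37.5, 32.6 and 37.2 CPM in control libraries A, B and C, 28.1, 6.45 and 29.2 CPM with guide 1 and 29.02, 23.5 and 21.004 CPM with guide 2, with guide 1 library B far below the rest (-0.65, adjusted p = 0.419). With any 1 library left out, 3 to 9 members fell and 0 to 2 rose.

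In a list of 22 factors gathered as inhibitors of differentiation, 6 rose (Egr1, Hey2, Hey1, Hes5, Klf6 and Nfib) and 0 fell, with a median of 0.23. With any 1 library left out, 2 to 10 rose and 0 to 5 fell. The listing does not settle the role of each member, that of Klf6 among them. In the targeted gene's own family, 3 of 13 measured SOX genes fell (Sox10, Sox6 and Sox12) and Sox13 rose, and 2 to 9 fell with any 1 library left out. Sox12 changed by -0.44, adjusted p = 0.00421. Sox13 is the third SoxD gene beside Sox5 and Sox6. It read 18.2, 20.5 and 19.4 CPM in control libraries A, B and C, 62.6, 51.8 and 56.9 CPM with guide 1 and 56.8, 56.9 and 56.4 CPM with guide 2, every targeted library above every control by about 3-fold (log2 change 1.56, SE 0.0899, adjusted p = 3e-05), with 1.56 with guide 1 and 1.55 with guide 2. Sox5, the closest relative of Sox6, had no call (0.0594, adjusted p = 0.899), and neither had Sox8 (-0.0764) or Sox9 (-0.24, adjusted p = 0.138).

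Cell cycle genes fell together: 19 of 37 measured members were lower and 0 higher, with a median of -0.71. Mki67, the proliferation marker Ki-67, read 132, 127 and 131 CPM in control libraries A, B and C, 54.9, 33.5 and 69.2 CPM with guide 1 and 53.02, 57.95 and 52.9 CPM with guide 2. Top2a, the mitotic topoisomerase, read 148, 147 and 139 CPM in control libraries A, B and C, 64.6, 69.05 and 82.5 CPM with guide 1 and 72.98, 66.2 and 71.2 CPM with guide 2. Neither overlapped between groups, and guide 1 library B was the lowest for Mki67 (log2 change -1.28, SE 0.178, adjusted p = 0.0034 for Mki67; log2 change -1.02, SE 0.0854, adjusted p = 0.00026 for Top2a). The replication licensing gene Mcm5 fell from 57.5 ± 2.51 to 32.8 ± 3.96 and 27.4 ± 2.73 CPM (-0.94, adjusted p = 0.000836). The mitotic kinesin Kif11 fell from 34.2 ± 1.75 to 16.5 ± 2.24 and 14.6 ± 1.47 CPM (-1.14, adjusted p = 0.00052) and the spindle checkpoint kinase Bub1b fell from 19.9 ± 1.49 to 9.51 ± 0.291 and 8.58 ± 0.612 CPM (-1.14, adjusted p = 0.00052). Kif18b, a further mitotic kinesin, changed by -1.698, adjusted p = 0.00141. Between 12 and 24 members fell with any 1 library left out. Of 23 p53 targets, which report the DNA damage response that cutting can start, 3 fell and 0 rose (1 to 5 fell with any 1 library left out); Btg2, an antiproliferative p53 target, fell from 217 ± 3.57 to 131 ± 9.49 and 127 ± 3.91 CPM (-0.75, adjusted p = 0.000287). Of 14 interferon response genes, which can report viral infection, only Rsad2 was called, and it fell (-1.58, adjusted p = 0.000656), a count near the 6.5% called among all genes tested.

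Genes of Notch signalling, in which ligands on 1 cell hold a neighbour's differentiation back, moved in opposite directions: 8 of 28 rose and 2 fell, with a median of 0.202. Among ligands, Dll1 rose from 149 ± 1.36 to 250.1 ± 10.1 and 232 ± 7.73 CPM (0.69, adjusted p = 0.000307), while Dll3, a divergent ligand that does not activate the receptor from a neighbouring cell, fell. Dll3 read 109.9, 112 and 109 CPM in control libraries A, B and C, 24.2, 30.4 and 26.2 CPM with guide 1 and 32.1, 34.01 and 29.997 CPM with guide 2, a difference of more than 3-fold in every targeted library (log2 change -1.91, SE 0.083, adjusted p = 7.62e-06). Lfng, which modifies Notch receptors with sugar, rose from 169 ± 12.96 to 329.6 ± 50.01 and 281 ± 11.7 CPM (0.85, adjusted p = 0.0017). Among targets, Hey2 read 17.5, 17.3 and 20.8 CPM in control libraries A, B and C, 29.5, 32.6 and 32.1 CPM with guide 1 and 30.3, 32.98 and 27.7 CPM with guide 2 with no overlap (log2 change 0.74, SE 0.104, adjusted p = 0.0037). Hey1 rose from 97.5 ± 3.21 to 164 ± 28.98 and 146 ± 3.26 CPM (0.67, adjusted p = 0.00579) and Nrarp, a feedback inhibitor, rose from 246 ± 5.72 to 441 ± 86.2 and 364 ± 11.01 CPM (0.702, adjusted p = 0.00601). Hes1 was above the controls in all targeted libraries without a call (0.46, adjusted p = 0.214). Heyl fell from about 1 CPM to near 0 (-3.99, adjusted p = 0.0127). For Heyl, the call was lost when control library A or B was left out (log2 -4.76 to -3.72 over the alternatives, adjusted p up to 0.0879). With any 1 library left out, 5 to 12 members rose.

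Part of the lipid, stress and glycolysis genes rose. Of 25 cholesterol synthesis genes, 6 rose and 0 fell (median 0.38): Dhcr7, which makes cholesterol from its last precursor, rose from 158 ± 8.42 to 222 ± 4.3 and 206 ± 5.81 CPM (0.44, adjusted p = 0.00367). Hmgcs1, an early step, rose from 2129 ± 31.7 to 3269.8 ± 458 and 2838 ± 165 CPM (0.52, adjusted p = 0.00941). For Hmgcs1, the call was lost when control library A, B or C was left out (log2 0.45 to 0.56 over the alternatives, adjusted p up to 0.0636). Of 28 fatty acid and sphingolipid genes, 6 rose and Fa2h alone fell; the desaturases Fads1 and Fads2 changed by 0.402 and 0.403 (adjusted p = 0.00521 and 0.0027). Of 29 genes of the integrated stress and unfolded protein responses, 7 rose and 0 fell (median 0.34). Chac1, an ATF4 target that degrades glutathione, rose from 8.75 ± 1.03 to 18.9 ± 2.18 and 19.05 ± 1.52 CPM (1.12, adjusted p = 0.00162). Slc7a11, the cystine transporter, rose from 69.6 ± 7.23 to 126 ± 28.9 and 166 ± 8.39 CPM (1.05, adjusted p = 0.00364) and Slc7a5, a transporter of large neutral amino acids, rose from 261 ± 1.35 to 441 ± 41.4 and 471 ± 27.1 CPM (0.803, adjusted p = 0.00052). Of 24 glycolysis genes, 4 rose, among them the platelet-type phosphofructokinase Pfkp (1.11, adjusted p = 0.00524) and the glucose transporter Slc2a1 (0.75, adjusted p = 0.000334). Without 1 library the risen members ran from 2 to 13 for cholesterol synthesis, 2 to 8 for fatty acids, 3 to 14 for stress and 2 to 8 for glycolysis, so the size of these groups rests on which libraries are used.

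Of 27 BMP and TGF-beta genes only Bmp2, a ligand that blocks oligodendrocyte formation, was called; 1 riser among 27 is near the 3.13% of all genes tested, so it is given as a single gene. It read 1.85, 1.82 and 2.08 CPM in control libraries A, B and C, 7.84, 7.52 and 8.32 CPM with guide 1 and 6.6, 7.14 and 7.72 CPM with guide 2, above the controls throughout (log2 change 1.97, SE 0.17, adjusted p = 0.000287), in a medium that contains noggin, a BMP antagonist. Of 31 Wnt genes the ligands Wnt5b (1.22, adjusted p = 0.0029) and Wnt7a (0.48, adjusted p = 0.00372) rose and 0 fell, again too few to set the list apart from that share. With any 1 library left out, 1 to 5 BMP and TGF-beta genes and 2 to 7 Wnt genes rose. Of 29 growth factor and ERK feedback genes 6 rose and 0 fell (median 0.31; 1 to 13 with any 1 library left out), among them Spry1, a feedback inhibitor of receptor tyrosine kinases (from 60.6 ± 3.48 to 102 ± 6.34 and 93.2 ± 2.01 CPM; 0.69, adjusted p = 0.000805), and Igfbp5, an IGF-binding protein (1.103, adjusted p = 0.00835). For Igfbp5, the call was lost when control library A, B or C was left out (log2 1.01 to 1.21 over the alternatives, adjusted p up to 0.0585). Of 19 thyroid hormone genes, the amino acid transporter Slc7a5 rose and Slc7a8 fell; the receptor Thra was at 0.0663 (adjusted p = 0.878).

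The largest rises among genes with at least 10 CPM in 1 of the conditions were led by Col9a1, a chain of collagen IX that SOX9 with SOX5 and SOX6 switches on in cartilage. Col9a1 read 0.52, 0.0629 and 0.0716 CPM in control libraries A, B and C, 14.01, 34.5 and 7.48 CPM with guide 1 and 7.2, 25.3 and 13.1 CPM with guide 2. Controls had a few reads at most, while targeted libraries spread almost 5-fold, with guide 1 library B the highest (log2 change 6.15, SE 0.896, adjusted p = 0.00421, and 5.74 without that library). Col9a1 kept its call in all 19 alternatives, but its log2 change ran from 3.89 to 7.82. The authors' deposited log2 ratio of control to targeted cells was -3.93, so the size of this rise depends on the method. Part of the cartilage genes that SOX proteins control went the other way: of 15 measured, 5 fell, Col9a1 alone rose and 9 had no call. With any 1 library left out, 3 to 7 fell and 1 to 3 rose. Matn1, cartilage matrix protein, read 9.48, 9.05 and 8.16 CPM in control libraries A, B and C, 0.987, 1.2 and 0.763 CPM with guide 1 and 1.2, 0.8002 and 1.22 CPM with guide 2, with no overlap (log2 change -3.104, SE 0.22, adjusted p = 0.000113). Acan, which encodes the proteoglycan aggrecan, was also below the controls in all targeted libraries (-2.02, adjusted p = 0.00782). For Acan, the call was lost when control library B was left out (log2 -2.21 to -1.88 over the alternatives, adjusted p up to 0.0564). Col11a2, a collagen XI chain, changed by -2.33, adjusted p = 0.00416. For Col11a2, the call was lost with a transcript length offset (log2 -2.701 to -2.17 over the alternatives, adjusted p up to 0.0542). The 5 measured genes of slow muscle and heart, where SOX6 is known to repress slow fibre genes, had no call; Myh6 was at 0.14.

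Next came channel, adhesion and enzyme genes that were low in controls. Pkd2l1, a polycystin cation channel, read 5.43, 6.85 and 5.37 CPM in control libraries A, B and C, 52.8, 45.8 and 48.8 CPM with guide 1 and 42.5, 34.9 and 43.3 CPM with guide 2 (log2 change 2.92, SE 0.136, adjusted p = 1.03e-05). Nkain2, which encodes a protein that interacts with the sodium pump, read 3.12, 3.71 and 3.8 CPM in control libraries A, B and C, 20.4, 18.9 and 23.5 CPM with guide 1 and 24.4, 23.4 and 20.2 CPM with guide 2 (log2 change 2.62, SE 0.147, adjusted p = 2.65e-05). Galnt13, which starts mucin-type O-glycans, read 6.13, 5.91 and 5.87 CPM in control libraries A, B and C, 32.5, 22.4 and 27.5 CPM with guide 1 and 32.3, 36.5 and 34.9 CPM with guide 2 (log2 change 2.37, SE 0.14, adjusted p = 3.31e-05). In all of them the lowest targeted library was more than 3 times the highest control. Smaller rises in the same class were those of Srrm4, a neural splicing regulator (2.23), Cdh8, a cadherin (2.14), Ptpru, a receptor tyrosine phosphatase (2.06), Hs3st1, a heparan sulfate sulfotransferase (1.74), Lrrtm4, a synaptic adhesion protein (1.71), and Scg2, a secretory granule protein (1.61). Their adjusted p ran from 3.31e-05 (Cdh8) to 0.00137 (Srrm4). Disp1, which releases hedgehog ligands, changed by 1.92, adjusted p = 0.00764. For Disp1, the call was lost when control library B was left out (log2 1.46 to 2.501 over the alternatives, adjusted p up to 0.0505). Cacna1e, a calcium channel subunit, changed by 1.79, adjusted p = 0.0169. For Cacna1e, the call was lost when control library A, B or C was left out or with a transcript length offset (log2 1.49 to 1.96 over the alternatives, adjusted p up to 0.1).

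The largest rises in absolute level included Nnat, which encodes neuronatin, a small membrane protein of the endoplasmic reticulum. Nnat read 556, 617 and 609.9 CPM in control libraries A, B and C, 1498, 2235 and 1481 CPM with guide 1 and 1385, 1699.8 and 1477 CPM with guide 2 (log2 change 1.45, SE 0.149, adjusted p = 0.000694), with guide 1 library B the highest; its span overlaps that of Blcap, and the kit did not mark strand. Sparcl1, a matricellular protein, rose from 970.4 ± 27.8 to 1676 ± 231 and 2032 ± 47.4 CPM (0.93, adjusted p = 0.000474) and Ttyh1, a membrane protein of glia, rose from 1254 ± 17.99 to 1716 ± 99.1 and 1688 ± 52.5 CPM (0.44, adjusted p = 0.00287). Gpm6b, a membrane glycoprotein of glia and neurons, rose from 2354 ± 72.3 to 2909 ± 185 and 3069.5 ± 147 CPM (0.34, adjusted p = 0.0138). For Gpm6b, the call was lost when control library A, B or C was left out, when guide 2 library A or C was left out, with library totals in place of TMM or with no filter on low counts (log2 0.28 to 0.38 over the alternatives, adjusted p up to 0.0967). Scd2, the brain stearoyl-CoA desaturase, rose from 8856 ± 94.1 to 11089 ± 953 and 11476 ± 569.7 CPM (0.35, adjusted p = 0.0154). For Scd2, the call was lost when control library A, B or C was left out, when guide 2 library A or C was left out, with library totals in place of TMM or with no filter on low counts (log2 0.28 to 0.39 over the alternatives, adjusted p up to 0.0945). Aldoc, the brain aldolase, rose from 1204 ± 34.1 to 1944 ± 412 and 1654 ± 17.7 CPM (0.57, adjusted p = 0.0197). For Aldoc, the call was lost when control library A, B or C was left out or when guide 2 library A, B or C was left out (log2 0.47 to 0.62 over the alternatives, adjusted p up to 0.103).

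Among the largest falls, Capn6, a calpain without protease activity, read 46.2, 49.3 and 46.6 CPM in control libraries A, B and C, 8.02, 6.79 and 8.47 CPM with guide 1 and 11.3, 9.2 and 10.7 CPM with guide 2 (log2 change -2.398, SE 0.104, adjusted p = 7.62e-06). Stk32a, a serine/threonine kinase, read 48.4, 47.3 and 46.7 CPM in control libraries A, B and C, 9.38, 6.79 and 8.09 CPM with guide 1 and 10.7, 11.7 and 11.3 CPM with guide 2 (log2 change -2.32, SE 0.105, adjusted p = 9.5e-06). Vgll2, a cofactor of TEAD transcription factors, read 11.7, 12.4 and 10.7 CPM in control libraries A, B and C, 1.91, 3.26 and 2.6 CPM with guide 1 and 2.24, 1.26 and 2.61 CPM with guide 2 (log2 change -2.33, SE 0.248, adjusted p = 0.000848). All 3 fell by more than 3-fold in every targeted library. Prkg2, a cGMP-dependent kinase (-2.19), Elfn2, a leucine-rich repeat protein (-1.92), Dach2, a transcription cofactor (-1.79), and Plppr1, a lipid phosphatase-related protein (-1.68), followed, with adjusted p from 2.65e-05 (Plppr1) to 0.000334 (Dach2). Rcan1, an inhibitor of calcineurin, had the largest fitted fall but uneven controls. It read 24.5, 4.84 and 58.9 CPM in control libraries A, B and C, 0, 0.466 and 2.52 CPM with guide 1 and 1.31, 0 and 0 CPM with guide 2, so the control libraries differed more than 10-fold among themselves (-5.48, adjusted p = 0.0238). For Rcan1, the call was lost when control library A or C was left out, when guide 2 library B or C was left out, by DESeq2 or by limma voom (log2 -8.401 to -4.46 over the alternatives, adjusted p up to 0.166).

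In absolute level the falls were led by Gpr17 and Bcas1, followed by adhesion and cytoskeletal genes. Dpysl3, a regulator of growth cone microtubules, fell from 926 ± 19.4 to 400.1 ± 74.8 and 470.2 ± 24.4 CPM (-1.09, adjusted p = 0.000571). Cntn1, the axoglial adhesion protein contactin 1, fell from 887 ± 40.5 to 437 ± 34.96 and 538 ± 23.1 CPM (-0.87, adjusted p = 0.000197). Serinc5, a membrane protein enriched in myelin, fell from 571 ± 5.58 to 339.7 ± 56.1 and 394 ± 4.78 CPM (-0.64, adjusted p = 0.00471). Nell2, a secreted glycoprotein, fell from 1189 ± 15.1 to 880.5 ± 32.9 and 955 ± 38.98 CPM (-0.37, adjusted p = 0.00481); its span overlaps that of Tmem117. Igsf9b, a synaptic adhesion protein, changed by -0.95, adjusted p = 0.0395. For Igsf9b, the call was lost when control library A, B or C was left out, when guide 2 library A, B or C was left out, with a transcript length offset or with the column letter as a block (log2 -1.05 to -0.81 over the alternatives, adjusted p up to 0.163).

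Receptors and surface molecules changed in both directions. Among all genes tested, 3.13% rose and 3.37% fell. Of 35 G protein-coupled receptors, 8 rose (Chrm3, Gpr37, Hrh3, S1pr1, Gpr153, Lpar4, Ednrb and Adgrb1) and 3 fell (Gpr17, Oprl1 and Gpr37l1). Chrm3, a muscarinic receptor of OPCs, read 0.694, 1.32 and 0.788 CPM in control libraries A, B and C, 2.41, 3.66 and 3.43 CPM with guide 1 and 4.8, 4.34 and 4.18 CPM with guide 2, all targeted libraries above the controls (log2 change 1.996, SE 0.304, adjusted p = 0.00521); its span overlaps that of the predicted gene Gm47406. Of 25 cadherins and protocadherins 6 rose and 0 fell, and of 30 IgLON and contactin adhesion genes 2 rose and 4 fell. Of 51 axon guidance genes 5 rose and 5 fell, with Unc5a down (-0.79, adjusted p = 0.00323) and the netrin Ntn4 up (0.603, adjusted p = 0.00209). Of 26 glutamate, GABA and glycine receptor genes, the AMPA receptor subunit Gria4 (-1.29, adjusted p = 0.00197) and the kainate receptor subunit Grik3 (-1.37, adjusted p = 0.00101) fell with Gria2 (-0.94, adjusted p = 0.00747). For Gria2, the call was lost when control library A was left out (log2 -1.02 to -0.84 over the alternatives, adjusted p up to 0.0522). Gabbr1, a GABA-B receptor subunit, rose (0.72, adjusted p = 0.000239). Of 26 potassium channel genes 2 rose and 3 fell, among them Kcnj16 up (0.55, adjusted p = 0.00546). Counts of 1 or 2 risers among 26 to 30 members are too few to set a list apart from all genes. With any 1 library left out, the numbers that rose and fell were 3 to 11 and 2 to 3 for the receptors coupled to G proteins, 3 to 12 and 0 for cadherins, and 0 to 6 and 2 to 6 for IgLON and contactin genes. For axon guidance they were 1 to 14 and 3 to 10, for transmitter receptors 1 to 4 and 2 to 5, and for potassium channels 1 to 6 and 1 to 4. The actin regulator Lima1 read 237, 254 and 240.3 CPM in control libraries A, B and C, 80.5, 64.6 and 80.3 CPM with guide 1 and 96.4, 88.4 and 95.97 CPM with guide 2, with every targeted library far below every control (log2 change -1.54, SE 0.0827, adjusted p = 2.38e-05).

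Gene groups of basal metabolism had few calls or none. Of 40 cytosolic ribosomal protein genes 0 were called (median -0.0582), but 11 fell without guide 1 library B, the library with the highest share of such reads. Of 42 respiratory chain genes 0 were called (median 0.204) and 3 rose without that library. Of 33 histone deacetylase, chromatin and repressor partner genes 2 fell and 0 rose, against 3.37% and 3.13% of all genes tested. They were the remodeller Chd3 (-1.52, adjusted p = 0.000287) and Ezh2, the methyltransferase of Polycomb (-0.497, adjusted p = 0.03), which kept its call in 8 of the 19 alternatives. So few calls are no result about the list.

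**Figure D4:**
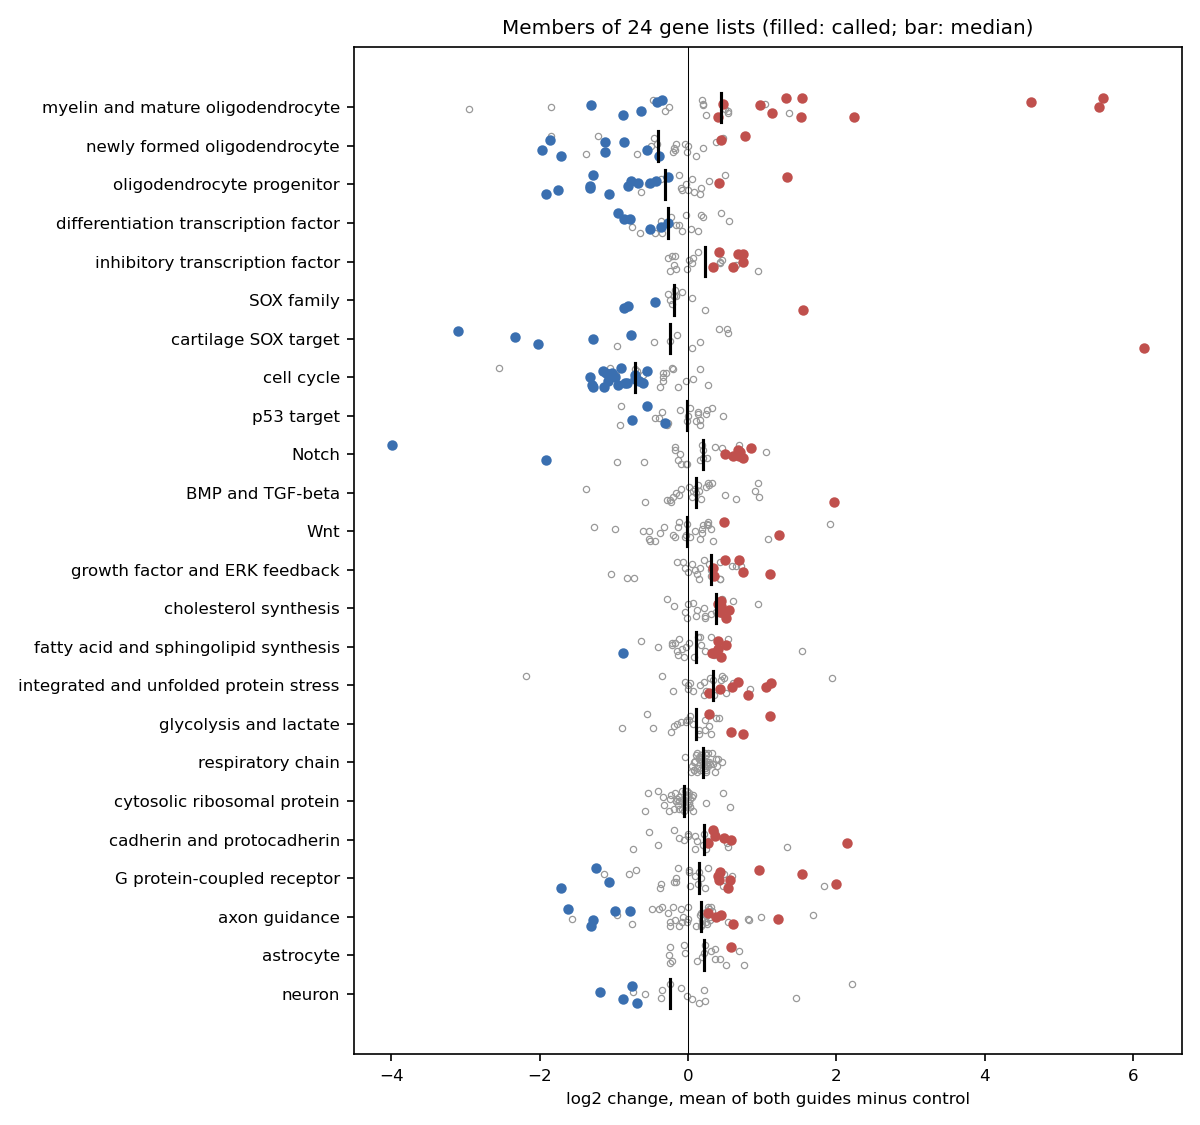
Log2 change over both guides (x) of the measured members of 24 gene lists (y). Each circle is a gene, filled red where called higher and filled blue where called lower, open where not called, and the bar is the list's median; the cell cycle list has 19 filled points on the left and 0 on the right, while the myelin list has 11 on the right and 5 on the left.

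Markers of other cell types were present at unequal levels. Sums here are over all list members in the deposited counts, whether or not they passed the filter. The 19 astrocyte markers summed to 12060 to 12420 CPM in controls, 13720 to 14460 with guide 1 and 14950 to 15410 with guide 2. Of the 18 measured, 1 was called (Aldoc, higher). Slc6a11, Apoe and Slc1a2 made up most of that sum, while Gfap averaged 2.57 CPM and Aqp4 20.7 CPM in controls. The 21 neuron markers summed to 2576 to 2689 CPM in controls, 1234 to 2271 with guide 1 and 2344 to 2399 with guide 2. Of the 17 measured, 4 fell (Gap43, Nefm, Nefl and Rbfox3). Only 3 of 15 microglia markers were measured and 0 were called. All 15 summed to 58.84 to 62.3 CPM in controls, 66.82 to 93.59 with guide 1 and 73.92 to 81.79 with guide 2. Siglech was listed at 0 in all 9 libraries. Of 9 measured markers of fibroblasts, pericytes and endothelium only Cspg4, also a progenitor gene, was called. Among Schwann cell markers 0 of 9 were called and among pluripotency markers 0 of 4, with Pou5f1 and Zfp42 listed at 0. As with Mal above, a listing at 0 is no measure of whether such cells were present. With any 1 library left out, 0 to 7 astrocyte markers rose and 0 to 3 fell, and 1 to 6 neuron markers fell. What part such cells had in the changes above was not tested. Of 16 genes of RNA quality and acute stress 2 rose, Hmox1, which degrades haem (0.83, adjusted p = 0.00554), and Egr1.

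Across the 43 gene lists, 972 distinct members were measured and 185 were called, against 6.5% of all genes tested. The lists were chosen for this lineage and with earlier results of these data known. Their higher share of calls is therefore no independent result. Of those 185 calls, 84 held under all 19 alternatives and 0 changed direction. Several members named above only within their list held in part of the 19. Rbfox3 kept its call in 8, Frmd4a, C1ql2 and Nefl in 9, Hrh3 and Slc7a8 in 10, and Mpzl1, Klf6 and Nfib in 11. Cspg4 kept it in 12, Hes5 in 13, Egr1 in 16, and Ednrb, Nefm, Gpr153, Lpar4, Adgrb1 and Gpr37l1 in 17.

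Each guide was also set against the controls alone. Guide 1 gave 661 genes (4.92%; 321 higher and 340 lower) and guide 2 gave 597 (4.44%; 310 higher and 287 lower), out of the 13447 tested; both use the same 3 control libraries. Without guide 1 library B these became 1580 and 2147 of 13810. The direct test of guide 2 minus guide 1 called 0 genes (0%) by edgeR, with 773 at an unadjusted p under 0.05. DESeq2 called 29 and limma voom 0, and leaving out guide 1 library A gave 1 by edgeR. Side by side, Gpr17 was -1.96 with guide 1 and -1.47 with guide 2, Sox10 -1.01 with guide 1 and -0.72 with guide 2 and Mbp 0.304 with guide 1 and 0.49 with guide 2 on the log2 scale.

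In growth medium, where bFGF and PDGFA keep the cells as progenitors, 479 of 13358 genes were called over both guides (3.59%), with 261 higher (1.95%) and 218 lower (1.63%). That contrast uses 8 other libraries: 3 controls, 2 with guide 1 and 3 with guide 2, and the growth-medium levels below are means over these. Among the 12829 genes tested in both media, 116 were higher in both, which is 28.7% of the 404 raised in differentiation medium and 44.8% of the 259 raised in growth medium. Likewise 98 were lower in both, 22.5% of 435 and 45.4% of 216. Gpr17 was among those lower in both (-2.97, adjusted p = 0.000139 in growth medium), as was Sox10 (-0.97, adjusted p = 0.00356), at much lower levels in progenitors: Gpr17 averaged 51.2 ± 10.8 CPM for controls, 5.71 ± 1.31 CPM for guide 1 and 7.5 ± 0.698 CPM for guide 2 (SD). Only 6 genes had calls of opposite direction, chosen here after their values were seen: Col9a1, Efhd2, Ptn and Tdrd7 were higher in differentiation medium and lower in growth medium, and Bcas1 and Nell2 the reverse. Bcas1 averaged 90.1 ± 3.34 CPM for controls, 109 ± 1.56 CPM for guide 1 and 112 ± 7.85 CPM for guide 2 (SD) in growth medium, a rise where differentiation medium showed a fall (0.296, adjusted p = 0.0292). By the edgeR test of the difference between media, given next, Bcas1 was at -1.39 (SE 0.0806, adjusted p = 9.58e-07).

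The difference between the responses in the 2 media was tested in 1 fit of all 17 libraries and called 243 of 14352 genes (1.69%; 132 with the higher change in differentiation medium and 111 with the lower). Culture medium and processing in a separate table cannot be told apart in the levels, but each response is a difference within its own medium. Col9a1 led, at 6.61 ± 0.492 CPM for controls, 2.43 ± 0.0339 CPM for guide 1 and 4.57 ± 1.1 CPM for guide 2 (SD) in growth medium against the rise above (difference 7.16, SE 0.866, adjusted p = 0.000619). Its difference ran from 4.89 to 8.82 over the alternatives. Nkain2 and Galnt13 had a larger change in differentiation medium (difference 2.92, SE 0.224, adjusted p = 1.38e-05 for Nkain2; difference 2.804, SE 0.313, adjusted p = 0.000315 for Galnt13), while in growth medium they were at -0.27, adjusted p = 0.655 and -0.405, adjusted p = 0.695. Chrm3 was 13.7 ± 1.67 CPM for controls, 8.95 ± 0.79 CPM for guide 1 and 10.2 ± 2.3 CPM for guide 2 (SD) in growth medium, highest in controls (difference 2.54, SE 0.315, adjusted p = 0.000793). Prr5l, a regulator of mTOR complex 2, rose in differentiation medium from 2.02 to 9.55 CPM (difference 1.66, SE 0.242, adjusted p = 0.00244). For Prr5l, the call was lost with a transcript length offset (log2 1.33 to 1.83 over the alternatives, adjusted p up to 0.516).

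On the other side, Lima1 fell in differentiation medium and had no call in growth medium (-0.101, adjusted p = 0.487; difference -1.42, SE 0.107, adjusted p = 1.38e-05). Mbp had the larger change in growth medium, from a very low level: it averaged 0.558 ± 0.198 CPM for controls, 2.93 ± 1.07 CPM for guide 1 and 2.4 ± 0.0512 CPM for guide 2 (SD) there (difference -1.79, SE 0.244, adjusted p = 0.00154). For Mbp, the call was lost by limma voom (log2 -2.08 to -1.54 over the alternatives, adjusted p up to 0.0652). Dixdc1, a Wnt pathway protein that binds actin, had a difference -1.63, SE 0.223, adjusted p = 0.00154. The ephrin receptor Epha3 had a difference -1.62, SE 0.241, adjusted p = 0.00281. For Dixdc1, the call was lost with a transcript length offset (log2 -1.73 to -1.28 over the alternatives, adjusted p up to 0.108). For Epha3, the call was lost with a transcript length offset (log2 -1.72 to -1.43 over the alternatives, adjusted p up to 0.0974). Rab7b, a small GTPase of endosomes, had a difference -1.75, SE 0.36, adjusted p = 0.0241. For Rab7b, the call was lost when control library A, B or C was left out, when growth-medium control library A or C was left out, when growth-medium guide 1 library A was left out, with no filter on low counts or with the column letter as a block (log2 -2.99 to -1.55 over the alternatives, adjusted p up to 0.0799).

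Independent libraries of sorted cells, OPCs and O1-positive OLs (3 each, deposited as TPM), show at which stage of untargeted cells the called genes are high. Of 452 lowered genes with a value there, 173 (38.3%) were at least 2-fold higher in sorted OLs than in sorted OPCs and 130 (28.8%) at least 2-fold lower, on the log2(TPM + 1) scale. Of 420 raised genes, 80 (19%) were higher and 125 (29.8%) lower. Over all 13426 genes tested the shares were 12.1% and 15.1%. The medians were 0.21 for lowered, -0.20 for raised and -0.11 for all genes. With the larger sets called without guide 1 library B, 27.3% of 1185 lowered genes were higher in sorted OLs and 25.1% lower, and 17% of 1144 raised genes were higher and 25.6% lower. Their medians were -0.141 for lowered and -0.175 for raised genes, so the median of the lowered set was above 0 only with that library included. Single genes differed: Mobp had 0.00791 TPM in OPCs and 293 in OLs, Gpr17 11.5 TPM in OPCs and 847 in OLs, Neu4 0.353 TPM in OPCs and 89.2 in OLs, Sox10 29.4 TPM in OPCs and 489 in OLs and Pkd2l1 0.19 TPM in OPCs and 0.547 in OLs. No test was made of these shares.

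**Figure D5:**
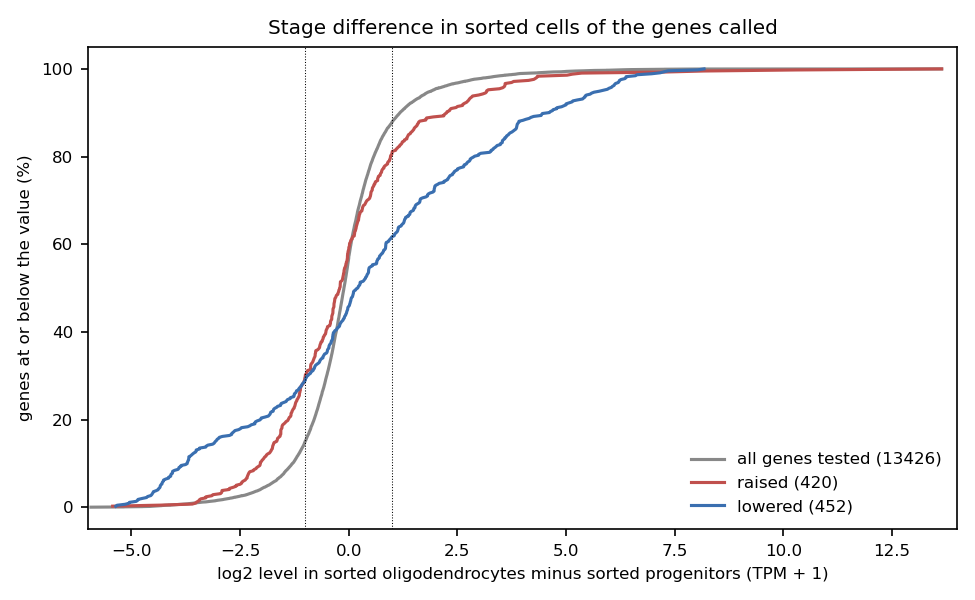
Cumulative percent of genes (y) at or below each difference in log2(TPM + 1) between sorted oligodendrocytes and sorted progenitors (x), for 420 raised, 452 lowered and all 13426 genes tested. Dotted lines mark a 2-fold difference; the lowered curve runs below the others on the right, where 38.3% of lowered genes lie beyond 2-fold against 19% of raised and 12.1% of all genes.

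The called genes were long. The median span in the genome was 33.4 kb for raised and 34.5 kb for lowered genes, against 23.7 kb for all genes tested, and 23.8%, 21.2% and 14.6% spanned more than 100 kb. Of the 96 genes raised at least 2-fold, 34.4% did. Without guide 1 library B, the library whose levels followed transcript length most strongly, the medians were 39.3 kb for raised and 29.8 kb for lowered genes. Whether detection or transcript length sets these values was not tested.

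In the authors' deposited table for this comparison, 995 of 13344 genes had an adjusted p at most 0.05, 533 higher in targeted cells and 462 higher in controls. It shared 711 genes with the 874 of the present test. Sox6 was not among its calls: the authors' deposited table gives it an adjusted p of 0.0593, against 0.0095 by the present test.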

How the data were processed

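Poly(A) RNA of 9 libraries was used for the main comparison, 8 more for growth medium and 6 of sorted cells. Per the submitters' processing notes, the tools were Salmon 0.14.1 and DESeq2 (version not stated there) and the build mm10, which is GRCm38. Estimated counts by gene symbol were deposited by the authors in 1 table per medium, together with TPM. Deposited too were the authors' log2 ratios of control to targeted cells and their adjusted p-values. All sample columns could be assigned from their names (0 left unassigned).

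Estimated counts were rounded, filtered with filterByExpr (minimum count 10, minimum total 15), scaled by TMM and tested with the two-sided quasi-likelihood F test of edgeR 4.0.16 (R 4.3.3), with 1 coefficient per guide and Benjamini-Hochberg adjustment over all genes tested (threshold 0.05). Targeting was estimated as the average of the 2 guide coefficients less control. On data simulated for this comparison (13201 genes, 200 changed) the test recovered 79% of 2-fold and 98% of 4-fold changes. The changed genes were drawn only from those with higher counts, and no simulated library was made to stand apart. Recovery of changes in low genes was not tested. Sorted cells were described on log2(TPM + 1); their depth is unknown. Alternatives were DESeq2 1.42.0, limma voom (3.58.1), other scalings and filters, a transcript length offset, a replicate block and leaving out each library.

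Sox6, Mobp, Ermn, Bcas1 and Neu4 were always named. Further named genes were the 15 largest rises and 15 largest falls in log2 and the 8 in each direction in CPM, with at least 10 CPM in the higher condition and no overlap between targeted and control libraries, and the 5 largest in each direction between media; predicted, mitochondrial and ribosomal protein genes were left out. Members of the 43 gene lists could be named as examples; a few single-gene results are not reported here and stay in the counts. The members and lists were chosen with earlier results of these data known. Positions came from the annotation of GRCm38 and promoter windows from RefSeq. Figures used Python 3.11.15, pandas 2.3.3 and matplotlib 3.10.9.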

Additional observations from a re-analysis of the deposited data

Results flagged for a closer look

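For 10 genes the response to SOX6 targeting differed between differentiation and growth medium by the test of the difference itself (edgeR, 1 fit of 17 libraries). The difference in log2 change was 7.16 for Col9a1, 2.92 for Nkain2, 2.80 for Galnt13, 2.54 for Chrm3 and 1.66 for Prr5l, all higher in differentiation medium. It was -1.79 for Mbp, -1.75 for Rab7b, -1.63 for Dixdc1, -1.62 for Epha3 and -1.42 for Lima1, all with the lower change there. Mbp itself still rose in differentiation medium, by 0.400 on the log2 scale, and rose more in growth medium. Adjusted p ran from 1.38e-05 (Nkain2 and Lima1) to 0.0241 (Rab7b), and 5 of the 10 kept their call under all 24 alternatives.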

How the results depend on the processing

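Of the 46 genes named over both guides, 34 kept their call under all 19 alternatives, and 0 of 46 reversed. Of the 10 named between media, 5 kept their call and 0 reversed. Apart from those always named, these genes were picked for large changes in the same contrasts. The alternatives also reuse the same libraries, so calls kept in this way are no independent support. Counts of called genes moved more. Over both guides (874) they were 1500 by DESeq2, 2735 by limma voom with sample quality weights, 580 with a transcript length offset, 1604 with both media in 1 fit, 353 to 2337 with any 1 library left out, and 2372 without guide 1 library B over the genes of the 9-library fit, an alternative chosen after seeing the data. For guide 1 (661) they were 1281, 1873 and 431 in the same order of the first 3, and 256 to 1580 with any 1 library left out. For guide 2 (597) they were 1137, 2297 and 328, and 212 to 2147. For the difference between media (243) they were 525, 852 and 104, and 113 to 638, lowest without control library A and highest without guide 1 library B. For guide 2 minus guide 1 (0) DESeq2 gave 29, and leaving out a library gave 0 to 1. With the column letter as a replicate block, counts were 607 over both guides, 400 for guide 1 and 355 for guide 2; libraries of the same letter did not deviate together (correlations of deviations from the group means -0.0266 to 0.083 in 9 pairs, and -0.0654 to 0.0708 in 18 pairs of different letters), so the letters are not taken to pair the samples. The remaining alternatives kept every one of these counts within 1.5 times. Why the counts moved was not tested. With 3 libraries a group, small changes of low genes could not be detected with confidence.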
